A study of Mus musculus with 7 samples.

Results

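The genes described here encode proteins of the tight junction, the seal between neighbouring epithelial cells. The list names 5 claudins (Cldn1, Cldn3, Cldn4, Cldn7 and Cldn8), occludin (Ocln), the junctional adhesion molecule F11r and the scaffold proteins Tjp1 and Tjp3. They were taken by gene symbol, with every probe set that the array annotation assigns to exactly 1 of these symbols. All 9 genes were found among the 18193 genes measured, on 17 probe sets of the 34945 with a single symbol.

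Claudins are small membrane proteins that span the membrane several times and whose outer loops meet those of the next cell, which closes the gap between cells and sets which ions pass. Occludin joins the same strands, F11r (also called JAM-A) is an immunoglobulin-type adhesion protein at the border of the junction, and the cytoplasmic proteins ZO-1 (Tjp1) and ZO-3 (Tjp3) bind the tails of claudins and tie them to actin. In the epidermis the seal lies in the granular layer, and loss of claudin-1 in mice opens the skin barrier. Endothelial cells build tight junctions too, with claudin-5 as their main claudin and with ZO-1 and F11r in common with epithelia.

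Expression was measured in cells isolated by flow cytometry from mouse skin tumours as positive for the surface antigens Cd34 and Epcam. Tumours had been induced with DMBA, a carcinogen, and TPA, a tumour promoter. Carcinomas, the malignant form, gave 4 arrays (carcinoma GFP, 1, 2 and 3), and papillomas, the benign form, gave 3 arrays (papilloma GFP, 1 and 2). In each tumour type 1 array has GFP in its title in place of a number. The labels do not say what the tag means, and they give no age, strain, genotype or time after treatment. They name Nr2f2 beside each tumour type without stating an allele, so a change of that gene in all 7 arrays cannot be told from none. Whether the arrays came from separate animals is not stated either, so p-values measure the spread between these arrays, which may be technical, and precision is limited by how few arrays there are. Carcinoma was compared with papilloma, the comparison that the labels state, and the arrays with the GFP tag were compared with the untagged arrays because the tag occurs in both tumour types.

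Values are log2 probe set signals after RMA, a method that equalises arrays normalized together, and 1 unit is a doubling of signal. Which arrays were normalized together is not stated. Array medians lay between 5.38 and 5.51. The 2 GFP arrays stood apart in ways that bear on every comparison by tag. The mean log2 level of 15 endothelial markers was 10.94 in carcinoma GFP and 10.93 in papilloma GFP, compared with 5.35 to 5.80 in the untagged arrays. That of 11 fibroblast markers was 11.81 and 10.91, against 5.60 to 7.87, that of 9 immune markers 6.86 and 6.59, against 5.41 to 5.91, that of 5 melanocyte markers 5.82 and 6.23, against 4.77 to 5.88, and that of 9 keratinocyte markers 10.90 and 10.92, against 11.90 to 12.28. Limma called all 15 endothelial markers and 10 of 11 fibroblast markers higher with the tag, and Kdr, an endothelial growth factor receptor, differed by 6.08, Pdgfra, a fibroblast receptor, by 4.06 and Ptprc, the pan-leukocyte antigen, by 3.11. Of 9 immune markers 3 were called higher and 6 were not called (median 0.43). Of 5 melanocyte markers 2 were called higher and 3 were not called (median 0.34). Their mean level in carcinoma GFP lay within the range of the untagged arrays. Of 9 keratinocyte markers 6 were called lower with the tag and 0 higher (median -1.27). Cdh1, the epithelial cadherin, averaged 8.81 with the tag and 11.16 without it, Krt14, a basal keratin, averaged 12.92 and 13.90, and its partner Krt5, which was not called, 12.95 and 13.35. The 3' minus 5' difference of the Gapdh control probe sets, a measure of shortened RNA, was 3.193 and 3.189 in the GFP arrays, against -0.043 to 0.062 in the untagged arrays. The part of these other cell types and of RNA quality in the results by tag was not tested.

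With the GFP tag, Cldn4 was lower, and F11r and Tjp1 were higher. These are 3 of the 9 genes (1 lower and 2 higher), where limma called 19.8% of all genes at an adjusted p under 0.05, 7.93% lower and 11.9% higher. Between carcinoma and papilloma 0 of the 9 genes passed the same test, as did 0% of all genes. The upstream sequence of the 3 called genes is shown so that their start regions can be set side by side. The windows run from 250 bases before to 50 bases after the annotated gene start in RefSeq (assembly GRCm38.p6), 5' to 3' along the gene. Capitals mark the E-box CAGGTG, which reads CACCTG on the other strand and is bound by Snail and ZEB repressors of epithelial genes, and the GC box GGGCGG, which reads CCGCCC on the other strand and is bound by Sp1-type factors. Cldn4 lies on the minus strand at chr5:134946885-134947184, F11r on the plus strand at chr1:171437311-171437610 and Tjp1 on the minus strand at chr7:65371195-65371494.
Cldn4: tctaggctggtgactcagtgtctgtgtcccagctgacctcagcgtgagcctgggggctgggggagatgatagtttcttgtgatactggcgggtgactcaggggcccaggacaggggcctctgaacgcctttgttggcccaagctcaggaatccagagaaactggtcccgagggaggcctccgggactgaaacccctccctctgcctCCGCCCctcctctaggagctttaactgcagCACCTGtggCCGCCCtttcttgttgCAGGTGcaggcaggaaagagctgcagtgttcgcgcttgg
F11r: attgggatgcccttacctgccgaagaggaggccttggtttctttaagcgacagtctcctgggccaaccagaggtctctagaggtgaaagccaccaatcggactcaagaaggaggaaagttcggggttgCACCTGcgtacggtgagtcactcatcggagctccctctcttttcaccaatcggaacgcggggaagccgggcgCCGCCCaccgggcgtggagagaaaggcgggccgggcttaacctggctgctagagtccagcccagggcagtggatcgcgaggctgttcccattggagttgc
Tjp1: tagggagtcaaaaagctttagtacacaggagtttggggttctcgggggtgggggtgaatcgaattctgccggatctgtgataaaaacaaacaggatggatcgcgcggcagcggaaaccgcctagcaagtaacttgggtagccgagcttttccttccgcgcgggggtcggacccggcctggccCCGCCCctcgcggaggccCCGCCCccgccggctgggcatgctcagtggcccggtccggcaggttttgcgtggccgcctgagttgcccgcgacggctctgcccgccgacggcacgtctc
The Cldn4 window holds 2 E-boxes, the F11r window 1 and the Tjp1 window 0. E-boxes occur in 20.2% of the 32851 RefSeq windows of this length and GC boxes in 35.7%. Of 11 windows found for 8 of the 9 genes, 8 hold an E-box and 8 a GC box. The windows are not independent, since Cldn7, Ocln and Tjp3 have 2 each and those of Ocln overlap and share 1 E-box. By gene, 6 of the 8 hold an E-box and 7 a GC box, whereas the shares above are per window. AACCGGTT, the palindromic site of Grainyhead-like factors, is in 0 of the 11 windows and in 0.146% of all windows. The motifs do not overlap in the windows shown. CG dinucleotides number 9 in the Cldn4 window, 19 in that of F11r and 31 in that of Tjp1, where the median window has 7. No window was found for Cldn8.

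Cldn4, the claudin of many barrier epithelia and a receptor for a clostridial toxin, had a log2 signal of 6.95 in carcinoma GFP and 7.14 in papilloma GFP, compared with 10.45, 10.15 and 10.25 in carcinoma 1, 2 and 3 and 10.47 and 7.97 in papilloma 1 and 2. Both GFP arrays lay below every untagged array, and papilloma 2 lay closer to them than to the other untagged arrays. The difference by tag, adjusted for tumour type, was -2.75 (SE 0.64, limma adjusted p = 0.0266). The call ended when either GFP array was left out (-2.08 with an adjusted p of 0.317 without carcinoma GFP, and -3.34 with 0.0865 without papilloma GFP) and when carcinoma 1 or carcinoma 2 was left out (adjusted p = 0.0581 and 0.0594). In sorted cells measured in bulk, fewer cells that carry a transcript and less of it per cell cannot be told apart.

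Cldn8, a claudin known for limiting cation leak in the kidney and gut, was likewise lowest in the GFP arrays. It had 6.39 in carcinoma GFP and 5.98 in papilloma GFP, compared with 10.25, 8.93 and 9.10 in carcinoma 1, 2 and 3 and 10.19 and 6.996 in papilloma 1 and 2. Papilloma 2 was again the lowest of the untagged arrays. The difference by tag was -2.84 (SE 0.82) and missed the threshold (limma adjusted p = 0.0541). It passed under 8 of 16 alternatives, with adjusted p-values over the 16 from 0.00223 with array weights to 0.361 without carcinoma GFP. Without papilloma GFP the adjusted p was 0.225, and without papilloma 2 the difference was -3.51 (adjusted p = 0.00562).

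**Figure D1:**
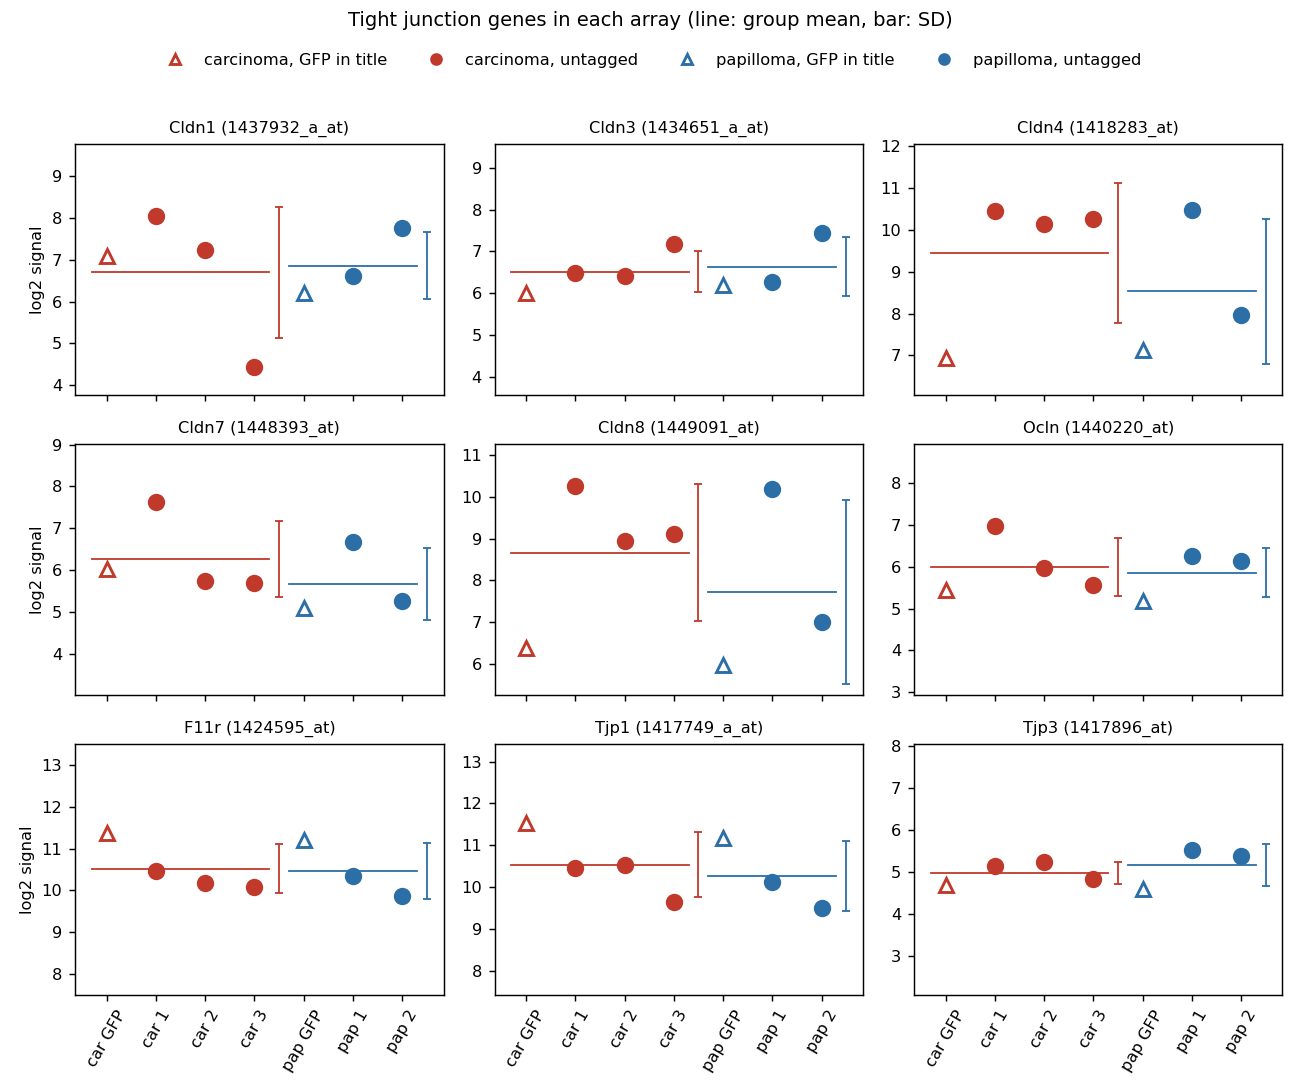
Log2 signal (y axis, 6 units in every panel) of the 9 genes on their brightest probe set in each of the 7 arrays (x axis). Triangles are arrays with GFP in the title, lines are means and bars SDs of carcinoma (n = 4) and papilloma (n = 3), and Cldn4 and Cldn8 show both triangles and papilloma 2 below the other arrays while F11r and Tjp1 show both triangles on top.

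Cldn1, the claudin that the epidermal barrier depends on, has 4 probe sets. The brightest, 1437932_a_at, read 7.09 in carcinoma GFP and 6.22 in papilloma GFP, compared with 8.04, 7.24 and 4.43 in carcinoma 1, 2 and 3 and 6.61 and 7.75 in papilloma 1 and 2. The GFP arrays lay within the range of the others, and carcinoma 3 was the lowest of all. The difference by tag was -0.18 (SE 0.96, limma adjusted p = 0.922). On 1450014_at the GFP arrays gave 4.22 and 4.67, against 4.56 to 7.21, and the difference was -1.53 (SE 0.66, adjusted p = 0.186 over all probe sets), so the probe sets of Cldn1 gave different sizes. The other 2 lay between 3.03 and 3.63 in all arrays, below the array medians, and no detection call was available for them.

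Cldn3, which on chromosome 5 neighbours Cldn4, was lowest in the GFP arrays by a small margin and was not called. Its brightest probe set, 1434651_a_at, read 6.01 in carcinoma GFP and 6.19 in papilloma GFP, compared with 6.48, 6.42 and 7.17 in carcinoma 1, 2 and 3 and 6.27 and 7.45 in papilloma 1 and 2. The difference by tag was -0.68 (SE 0.36, limma adjusted p = 0.258). Papilloma 2, where Cldn4 was low, had the highest Cldn3 signal of the 7 arrays. Of the other 3 probe sets of Cldn3, 1451701_x_at differed by -0.65, with both GFP arrays again below every untagged array. The groups overlapped on 1426332_a_at (-0.38) and 1460569_x_at (-0.12).

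Cldn7, a claudin of the lateral membrane that binds Epcam, had 6.01 in carcinoma GFP and 5.10 in papilloma GFP, compared with 7.62, 5.75 and 5.69 in carcinoma 1, 2 and 3 and 6.67 and 5.26 in papilloma 1 and 2. Groups overlapped by tag, and carcinoma 1 and papilloma 1 were the highest arrays. The difference by tag was -0.59 (SE 0.62, limma adjusted p = 0.57).

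Ocln, the first membrane protein described in tight junctions, was measured by 2 probe sets. On 1440220_at it had 5.45 in carcinoma GFP and 5.18 in papilloma GFP, compared with 6.97, 5.98 and 5.57 in carcinoma 1, 2 and 3 and 6.25 and 6.14 in papilloma 1 and 2. On 1448873_at it had 4.49 and 4.60 in the GFP arrays, against 8.42, 6.19 and 5.2 in carcinoma 1, 2 and 3 and 6.91 and 4.88 in papilloma 1 and 2. Both probe sets placed the GFP arrays lowest and carcinoma 1 highest. The differences by tag were -0.86 (SE 0.37) and -1.73 (SE 0.92) and did not pass (limma adjusted p = 0.162 over genes and 0.276 over probe sets).

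F11r had 11.37 in carcinoma GFP and 11.20 in papilloma GFP on its brightest probe set, compared with 10.46, 10.19 and 10.08 in carcinoma 1, 2 and 3 and 10.35 and 9.88 in papilloma 1 and 2. The GFP arrays lay above all the others, which averaged 10.19 ± 0.23 (SD, n = 5). The difference by tag was 1.11 (SE 0.20, limma adjusted p = 0.011). The call ended without carcinoma GFP (1.09, adjusted p = 0.153) and also when papilloma GFP was left out (1.13, adjusted p = 0.0962). The second probe set of F11r, 1436374_x_at, lay between 4.33 and 4.87 and differed by 0.08 (SE 0.20).

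Tjp1, the scaffold ZO-1 that epithelial and endothelial junctions share, had 11.52 in carcinoma GFP and 11.17 in papilloma GFP, compared with 10.45, 10.54 and 9.64 in carcinoma 1, 2 and 3 and 10.13 and 9.49 in papilloma 1 and 2. Both GFP arrays exceeded every untagged array. The difference was 1.33 (SE 0.31, limma adjusted p = 0.0252), and the call ended without carcinoma GFP (1.36, adjusted p = 0.218) and also when papilloma GFP was left out (1.31, adjusted p = 0.173).

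Tjp3, the scaffold ZO-3, which is found in epithelia, had 4.69 in carcinoma GFP and 4.60 in papilloma GFP, compared with 5.15, 5.23 and 4.83 in carcinoma 1, 2 and 3 and 5.53 and 5.38 in papilloma 1 and 2. The difference of -0.60 (SE 0.20) did not pass (limma adjusted p = 0.0856), and all values lay near or below the array medians. On their brightest probe sets, 5 of the 9 genes had both GFP arrays below every untagged array, where 19.9% of all genes did. These were Cldn3, Cldn4, Cldn8, Ocln and Tjp3. F11r and Tjp1, 2 of the 9 genes, had both above, where 21.0% of all genes did. When every probe set was tested, 3 of the 17 passed, where 16.0% of all single-symbol probe sets did. The median difference by tag was -0.60 over the 9 genes and -0.05 over all genes.

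**Figure D2:**
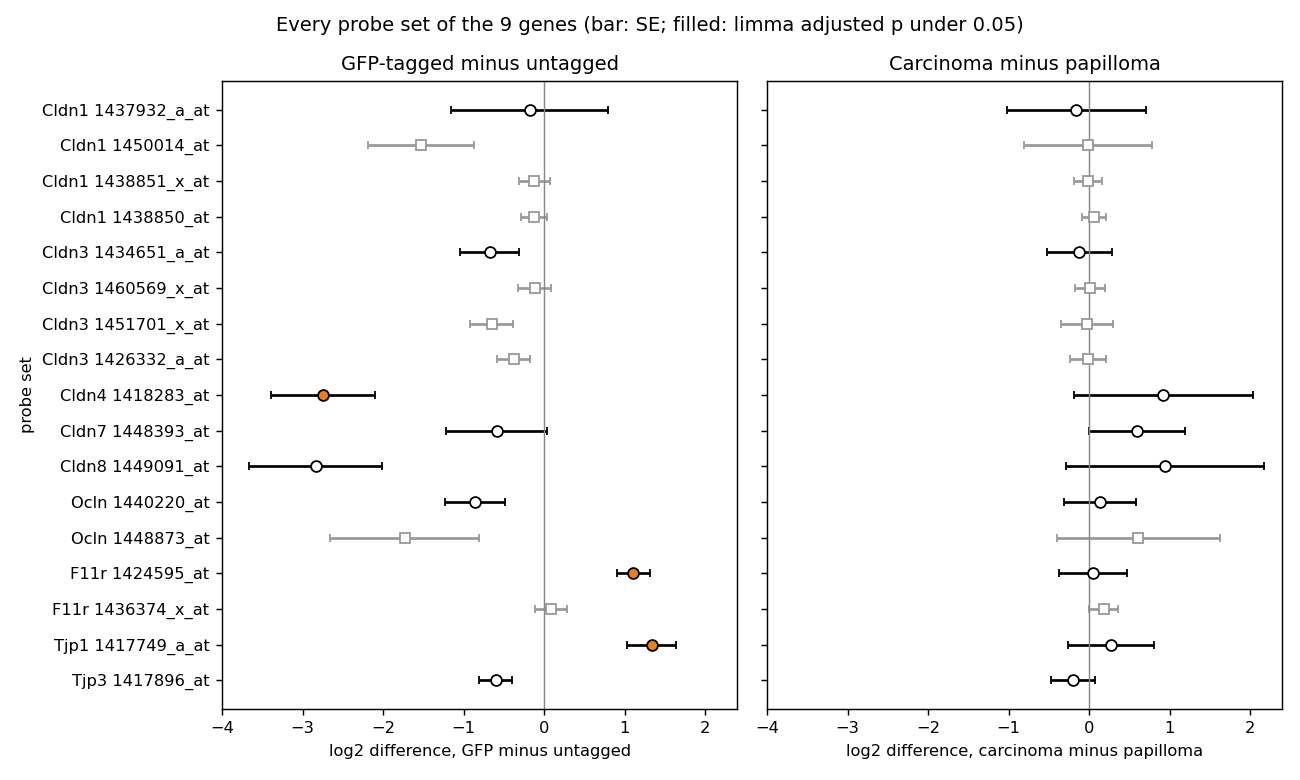
Difference in log2 signal (x axis) for each of the 17 probe sets (y axis), GFP-tagged minus untagged arrays on the left and carcinoma minus papilloma on the right, with SE bars. Circles mark the brightest probe set of a gene, squares the others and filled symbols an adjusted p under 0.05, which Cldn4, F11r and Tjp1 reach on the left and none reaches on the right.

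Between tumour types the claudins Cldn4 and Cldn8 had the largest differences of the 9 genes, 0.92 (SE 1.11) and 0.94 (SE 1.22), with carcinoma above papilloma, and neither exceeded its error. Cldn4 averaged 9.45 ± 1.67 in carcinoma (SD, n = 4) and 8.53 ± 1.74 in papilloma (SD, n = 3), and Cldn8 8.67 ± 1.63 and 7.72 ± 2.20. Cldn7 differed by 0.59 (SE 0.59), Tjp1 by 0.27 (SE 0.54), Ocln by 0.14 (SE 0.44), F11r by 0.05 (SE 0.42), Cldn3 by -0.12 (SE 0.40), Cldn1 by -0.16 (SE 0.86) and Tjp3 by -0.20 (SE 0.28). The limma adjusted p was 1 for each of the 9 genes. Two-sided exact permutation tests, run gene by gene over the 35 splits of the arrays, gave p between 0.457 for Tjp3 and 0.971 for Cldn1, where 0.0571 is the smallest possible. The tumour types overlapped for all 9 genes, and they did not overlap for 1.42% of all genes. Limma called 0 genes in this comparison over the whole array, with 112 at an unadjusted p under 0.05.

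The size of the Cldn4 and Cldn8 differences depended on single papilloma arrays. Among the 5 untagged arrays Cldn4 differed by 1.06 (SE 0.70) and Cldn8 by 0.83 (SE 0.96). Papilloma 1 was as high as the carcinoma arrays in both genes and papilloma 2 was not: carcinoma 1 minus papilloma 1 was -0.02 for Cldn4 and 0.06 for Cldn8, and carcinoma 2 minus papilloma 2 was 2.18 and 1.94. Within the GFP pair the differences were -0.19 and 0.40. Without papilloma 1 the differences were 1.89 and 2.18, and without papilloma GFP 0.23 and 0.07. Without carcinoma GFP they were 1.75 and 1.70, and without carcinoma 1 they were 0.59 and 0.42. Cldn7 ranged from 0.14 without carcinoma 1 to 1.09 without papilloma 1, and Tjp3 from -0.48 without papilloma GFP to -0.02 without papilloma 1. With the tag as a covariate Cldn4 differed by 0.69 (SE 0.59), Cldn8 by 0.71 (SE 0.75), Cldn7 by 0.54 (SE 0.57) and Tjp1 by 0.38 (SE 0.28), and 0 of the 9 genes passed. An interaction term compared the tumour type difference of the GFP-tagged arrays with that of the untagged arrays. On the GFP side it sets 1 array against 1, so its error comes from the untagged arrays only, with 3 residual degrees of freedom. Over the 9 genes it ranged from -1.25 for Cldn4 to 1.48 for Cldn1. With 1 GFP array per tumour type, this term cannot show whether the difference depends on the tag.

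Carcinoma and papilloma arrays with the same label (1, 2 or GFP) were also compared as pairs. Carcinoma was above papilloma in all 3 pairs for Cldn7 (0.95, 0.49 and 0.92 for labels 1, 2 and GFP), Tjp1 (0.32, 1.05 and 0.35), F11r (0.11, 0.31 and 0.17) and Cldn8 (0.06, 1.94 and 0.40). For the other 5 genes the pairs differed in sign. The share of all genes with the same sign in all 3 pairs was not counted, so these signs are given as values only. The labels do not say that these arrays belong together. With the label as a replicate block Cldn7 differed by 0.79 (SE 0.20), Tjp1 by 0.57 (SE 0.23), Cldn8 by 0.80 (SE 0.41), Cldn4 by 0.65 (SE 0.52) and F11r by 0.20 (SE 0.17), and 0 of the 9 genes passed (limma adjusted p = 0.999 for each). Label 3 occurs only in carcinoma, so carcinoma 3 does not enter these differences. They equal the differences with carcinoma 3 left out and are not a separate result.

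**Figure D3:**
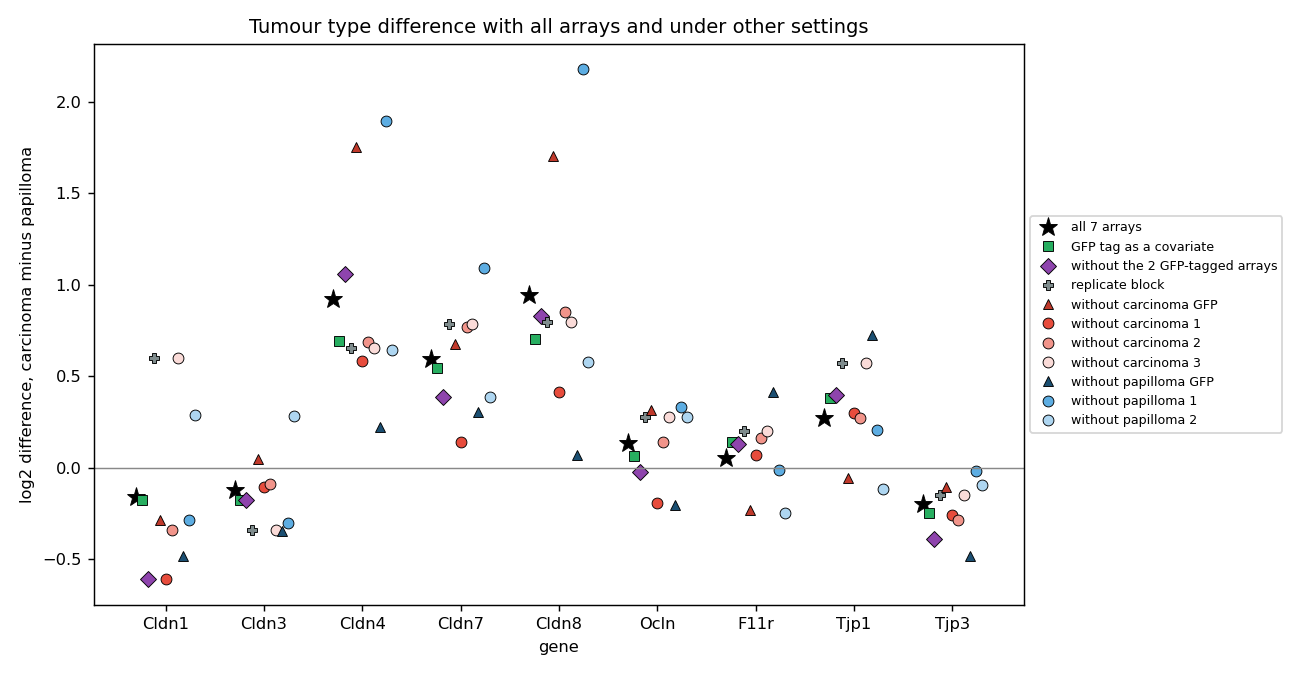
Carcinoma minus papilloma in log2 units (y axis) for each of the 9 genes (x axis) with all 7 arrays (star), with the GFP tag as a covariate, without the GFP arrays, with the replicate block and with each array left out. Cldn4, Cldn7 and Cldn8 stay above 0 and Tjp3 below 0 under the settings drawn, whereas Cldn1, Cldn3, Ocln, F11r and Tjp1 fall on both sides. The replicate block and the fit without carcinoma 3 give the same differences.

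Papilloma 2 was the lowest untagged array for 5 of the 9 genes, Cldn4, Cldn7, Cldn8, F11r and Tjp1, and also for the second probe set of Ocln. The mean log2 level of the 9 genes was 7.37 there, against 7.42 to 8.43 in the other untagged arrays. Cldn1 was at 7.75 in papilloma 2, below only carcinoma 1, and Cldn3 was at its highest. In this array the 9 keratinocyte markers averaged 11.90, against 12.11 to 12.28 in the other untagged arrays, Epcam was 10.52, against 10.96 to 11.97, and Cd34 was 8.76, against 9.69 to 10.80. The part of these levels in the junction gene values was not tested.

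Other claudins and junction proteins were examined as lists of textbook members. Among 15 other claudins measured, 2 were higher with the GFP tag, 0 lower and 13 were not called. Cldn5, the endothelial claudin, had 11.60 in carcinoma GFP and 11.13 in papilloma GFP, compared with 5.26 to 5.91 in the untagged arrays, a difference of 5.88 (SE 0.25, limma adjusted p = 4.16e-05). Cldn15, known from intestinal epithelium, differed by 2.13 (SE 0.28, adjusted p = 0.00325). Cldn4, at -2.75 the only one of the 9 genes called lower, and Cldn5 therefore moved in opposite directions with the tag. The median of the 15 was -0.10, against -0.05 over all genes.

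Of the 9 other membrane proteins, 3 were higher with the tag and 2 lower, with a median of -0.34. Esam, an endothelial adhesion molecule, rose by 5.21 (SE 0.20, limma adjusted p = 2.97e-05), and Jam2 and Jam3, relatives of F11r that vessels express, by 3.01 (SE 0.42) and 2.20 (SE 0.20). Cxadr, an epithelial junction protein that also serves as a virus receptor, had 7.90 in carcinoma GFP and 6.89 in papilloma GFP, compared with 8.4 to 9.8, a difference of -1.76 (SE 0.42, adjusted p = 0.0285), and Lsr, a protein of contacts between 3 cells, was the other gene called lower (-1.31). Marveld2, or tricellulin, differed by -0.63 (SE 0.71) and was not called.

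The plaque proteins beneath the membrane were called higher in 3 cases of 12 and lower in 1, with a median of 0.37. Amot, a scaffold first described in vessels, rose by 3.06 (SE 0.25), Magi3, a scaffold of junctions, by 2.10 (SE 0.57) and Cgnl1, or paracingulin, by 1.84 (SE 0.35), while Ybx3, a partner of ZO-1 that binds nucleic acids, fell by 0.89 (SE 0.17). Cgn, or cingulin, differed by -0.38 (SE 0.31) and was not called. Among 13 polarity proteins 2 were higher and 1 lower: Pard3b rose by 1.90 (SE 0.20) and Llgl1 by 0.72 (SE 0.16), and Pard3, the polarity protein that joins F11r, fell by 1.19 (SE 0.33), with a median of -0.10 over the list.

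All 5 membrane proteases and claudin partners that were measured had lower means with the tag, and 2 passed. Epcam, a partner of Cldn7 and the antigen used for sorting, fell by 2.395 (SE 0.47, limma adjusted p = 0.0144), and Spint1, an inhibitor of the membrane protease matriptase, by 1.34 (SE 0.31, adjusted p = 0.0269). St14, matriptase itself, differed by -1.23 (SE 0.39, adjusted p = 0.0709). The other sorting antigen, Cd34, which endothelial cells carry too, rose by 1.81 (SE 0.50, adjusted p = 0.0473).

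Of 14 transcription factors known to act on junction genes, 6 were lower and 2 higher with the tag, with a median of -0.71. Klf5, an epithelial factor, fell by 2.51 (SE 0.21), Ovol2 by 2.31 (SE 0.25) and Ovol1 by 2.20 (SE 0.25), and Grhl2, a Grainyhead-like activator of claudin genes, fell by 2.05 (SE 0.25). Grhl3, its relative in epidermal differentiation, differed by -1.21 (SE 0.77) and was not called. Zeb1, a repressor of epithelial genes that fibroblasts and endothelium express, had 10.54 in carcinoma GFP and 10.55 in papilloma GFP, compared with 4.50 to 4.93, a rise of 5.83 (SE 0.17, limma adjusted p = 2.09e-05), and Snai1, a Snail repressor, rose by 1.30 (SE 0.27). Snai2 differed by 0.27 (SE 0.28), Zeb2 by 0.20 (SE 0.22) and Twist1 by 1.19 (SE 0.50), and none of these 3 was called. The Zeb2 probe set read 5.21 to 5.96 over all arrays, near the array medians, and no detection call was available for it. Counts over these 6 lists are to be read against the 11.9% and 7.93% of all genes called higher and lower.

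**Figure D4:**
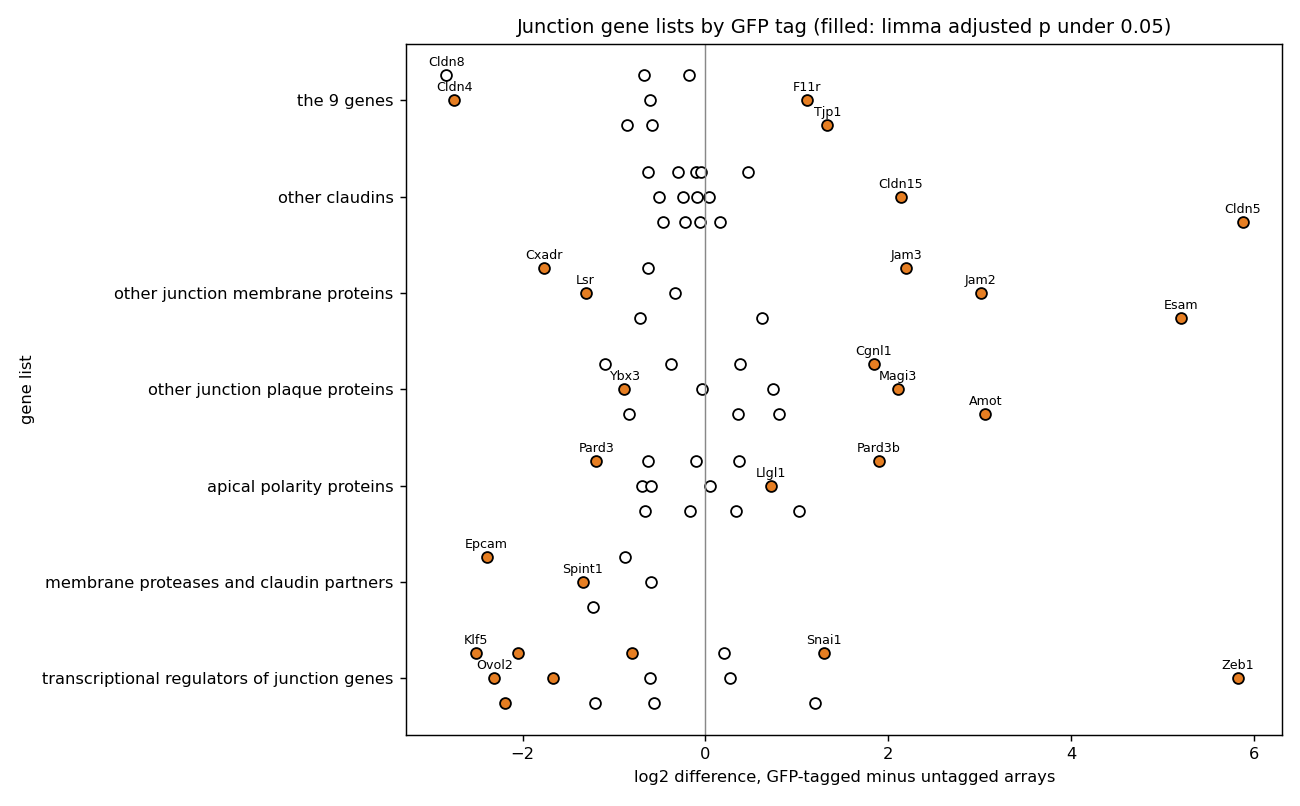
Difference in log2 signal between GFP-tagged and untagged arrays (x axis) for each measured gene of 7 lists (y axis, genes spread vertically for legibility), with genes at an adjusted p under 0.05 filled. Cldn5, Esam and Zeb1 lie more than 5 units above 0, and Cldn4 and Cldn8 lie lowest.

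By tumour type 0 genes passed in each of these 6 lists. The largest differences were Twist1 at 1.22 (SE 0.61) and Grhl3 at 1.0 (SE 0.81) among the regulators, Epcam at 0.76 (SE 0.93) and St14 at 0.28 (SE 0.55) among proteases and partners, Mpdz at 0.70 (SE 0.32) and Patj at 0.64 (SE 0.54) among plaque proteins, and Marveld2 at 0.68 (SE 0.68) and Esam at -0.52 (SE 1.81) among membrane proteins. Pard3 and Pard6b, polarity proteins, differed by 0.56 (SE 0.51) and 0.54 (SE 0.54), and Cldn5 and Cldn10 by -0.50 (SE 2.04) and -0.27 (SE 0.21). The tag is on 1 of 4 carcinoma and 1 of 3 papilloma arrays, and this fit had no term for it. Differences by tag therefore enter these values. Cldn5 had 11.60 in carcinoma GFP and 11.13 in papilloma GFP. It had 5.26, 5.42 and 5.52 in carcinoma 1, 2 and 3 and 5.31 and 5.91 in papilloma 1 and 2. For Esam the values were 11.8 and 11.82, then 6.43, 6.60 and 6.62, and 6.395 and 6.92. List medians lay between -0.09 for the other claudins and 0.32 for the plaque proteins, against -0.02 over all genes and 0.14 over the 9 genes.

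Genes of like pattern were sought for Cldn1, Cldn4 and Cldn8, the genes whose brightest probe set had an SD of at least 1 over the 7 arrays. Likeness was the root mean square difference between log2 profiles after each gene was centred on its own mean. For Cldn8 the nearest of all other genes was Cldn4 (0.40), ahead of Arntl2, a clock factor (0.48), and Lif, a cytokine (0.55). For Cldn4 the nearest were Epha2, an ephrin receptor (0.35), Klk11, a kallikrein protease (0.37), and Grip1, a scaffold protein (0.39). Epha2 had 7.29 in carcinoma GFP and 6.93 in papilloma GFP. It had 9.80, 9.51 and 9.87 in carcinoma 1, 2 and 3 and 9.73 and 7.84 in papilloma 1 and 2. This order, lowest with the tag and next lowest in papilloma 2, follows from choosing Epha2 by its likeness to Cldn4. For Cldn1 the nearest were Tmem176a (0.34), Lgr6, a receptor of skin stem cells (0.35), and Smpdl3b, a membrane phosphodiesterase (0.43). Each of these 3 genes had its lowest signal in carcinoma 3, at 7.59, 4.34 and 6.12. They were chosen by likeness to Cldn1, which was lowest there on its brightest probe set, so the shared low follows from the choice. On another Cldn1 probe set, 1450014_at, carcinoma GFP (4.22) was lower than carcinoma 3 (4.56). These values describe 7 arrays, and 2 of the arrays differ from the rest in many genes. Whether the 7 arrays were normalized together is not stated.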

How the data were processed

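Cells sorted from carcinomas (4 samples) and papillomas (3 samples) were measured on Affymetrix mouse arrays. The authors deposited log2 values, from 2.72 to 14.51 (a scale taken from the values themselves). RMA and affy are named in the submitters' processing notes. Software versions, the chip definition and the set of arrays normalized jointly are not stated there.

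Of 45101 probe sets, 64 were controls, 34945 others had 1 gene symbol in the platform annotation of 2016, 932 had several and 9160 had none. Labels name the PM strip version of the array, whereas the annotation is of the standard design with the same probe set names. For 34741 the gene identifier was in the RefSeq table (GRCm38.p6), used for names and neighbours. The probe set of highest mean stood for each gene (18193 genes), with no filter on dim values, so all 9 genes were tested.

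Limma 3.58.1 in R 4.3.3 (lmFit, eBayes) compared carcinoma with papilloma without covariates and tagged with untagged arrays with tumour type as a covariate. Benjamini-Hochberg adjustment ran over all genes, or over all probe sets where stated, with a threshold of 0.05. The procedure was also run on simulated data, with noise taken from the spread of the untagged arrays only. The simulated GFP arrays had that same spread, so the reliability of calls by tag in the real arrays was not tested. For the tumour type fit the simulated arrays held no difference by GFP tag, unlike the real ones. Its power to find tumour type differences in these arrays was therefore not tested. The 9 genes, the lists and the rules for naming genes were chosen with earlier results of these data known. The rule took every probe set of the 9 genes, up to 4 called genes per other list for the tag, the 2 largest differences per list for tumour type, and 12 genes by name. Outside the rule, Lsr, Grhl2, Snai1, Snai2 and Zeb2, and the values of Twist1 and St14 by tag, were chosen after seeing them. Further called markers of other cell types are given as list means and counts.

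Replicate labels 1, 2 and GFP occur in both tumour types. Deviations of same-labelled arrays from their group means correlated at 0.476, 0.194 and 0.861 across genes, each above the limit of 0.1 used for pairing. Untagged arrays of unlike label exceeded it too. Carcinoma 2 and papilloma 1 reached 0.683, and carcinoma 3 and papilloma 2 reached 0.478. Carcinoma 1 and papilloma 2 reached 0.254, and carcinoma 3 and papilloma 1 reached 0.207. The group means include the GFP arrays, which stand apart, so the limit cannot tell same-labelled from other untagged arrays. The labels do not say what a number marks, and the fit with the replicate block is given beside the one without it. Other alternatives were repeated quantile normalization, median centring, a filter on dim genes, other gene summaries, array weights, a trended and robust variance, the tag as a covariate, and arrays left out.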

Additional observations from a re-analysis of the deposited data

Results flagged for a closer look

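Values were looked at for single arrays far from the rest of their group, by the gap to the nearest array over the whole range, in the 4 carcinoma arrays and the 5 untagged arrays for each of the 17 probe sets. Chance alone gives about 1 such array in 20 groups, and 5 were found in 34 groups, which share arrays. Cldn4 in carcinoma GFP, at 6.95, lay far below the other carcinoma arrays, at 10.15 to 10.45. Cldn4 in papilloma 2, at 7.97, lay far below the other untagged arrays, at 10.15 to 10.47. Cldn7 in carcinoma 1, at 7.62, lay above the other carcinoma arrays, at 5.69 to 6.01. On the dim Cldn1 probe set 1438851_x_at, carcinoma 2 at 3.63 lay above the other carcinoma arrays, at 3.13 to 3.20, and above the other untagged arrays, at 3.18 to 3.31. The cause of these values was not tested.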

How the results depend on the processing

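Of 138 values of the 9 genes by tag under the alternatives, 115 kept their direction and their side of the threshold, 9 lost a call, 11 gained one and 3 turned. Of 156 by tumour type, 140 kept both and 16 turned, with 0 calls under any alternative, and the comparison called 0 of all genes under each. By tag 3601 genes were called, against 6819 with array weights and 5591 of the larger number of single probe sets, and 861 to 3955 with 1 array left out (861 without carcinoma GFP, 1462 without papilloma GFP, each with 1 tagged array left, assumed to vary like the others). Of the 9 genes, the calls of Cldn4, F11r and Tjp1 numbered 0 without either GFP array, F11r also lost its call when all its probe sets were averaged (0.60, adjusted p = 0.0613), and array weights called 6 of the 9. Tjp1 has no value without probe sets of the _x_at, _s_at and _a_at kinds, and neither has Cldn3, and Cldn3, Cldn7, Ocln and Tjp3 have none above the median gene. With 1 array left out, Cldn1 by tag ranged from -0.96 to 0.52, and by tumour type Cldn1 ranged from -0.61 to 0.60, Cldn3 from -0.35 to 0.28, Ocln from -0.20 to 0.33, F11r from -0.25 to 0.41 and Tjp1 from -0.11 to 0.73. By tumour type, array weights turned Cldn1 to 0.27, Cldn3 to 0.023 and F11r to -0.10, leaving out both GFP arrays turned Ocln to -0.022, and the replicate block turned Cldn1 to 0.60. The replicate block changed no call, and its differences equal those with carcinoma 3 left out. The cause of these shifts was not tested. Median centring lowered the median difference by tag over all genes to -0.134, against -0.0543 as deposited.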
